A study of Drosophila melanogaster with 12 samples.

Results

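Fatty acyl-CoA reductases of female Drosophila oenocytes were followed by RiboTag sequencing through aging and paraquat (PQ) feeding. The genes were taken by name from a list of 10 (FarO, Sgp, wat, CG17560, CG17562, CG14893, CG4020, CG5065, CG12268 and CG8306), and all 10 were found among the 16191 loci of the deposited table, of which 13299 hold a protein-coding gene. Sgp is also known as CG13091 and FarO as CG18031. Another 7 fatty acyl-CoA reductase genes of the fly are given beside them, so that 17 genes are covered in all.

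There were 12 libraries in 4 groups of 3: PQ-Aged, H2O-Aged, PQ-Young and H2O-Young. The sample labels give an age of 28 days after eclosion for the aged flies and of 14 days for the young flies, while the methods of the study put the young flies somewhat younger and the aged flies somewhat older. Paraquat, a redox-cycling herbicide used to raise oxidative stress, was given on the food at 10 mM for 24 h in both PQ groups, and the H2O groups had water on their food instead. Flies of every group were mated females that carried both PromE-Gal4 and UAS-RpL13A-FLAG. PromE-Gal4 is a fragment of the Desat1 promoter used as an oenocyte driver, and RpL13A is a protein of the large ribosomal subunit, so that RNA bound to tagged ribosomes was pulled down from lysate of whole flies pooled within each replicate. The values are FPKM (fragments assigned to a transcript, scaled to its length and to the size of the library) that Cuffdiff gave once for each locus and group. No value per library was analysed here, so that no SD, interval or test can be given. A difference is called where the group FPKM differ at least 2-fold, with an FPKM of at least 1 in one of both groups and above 0 in each. Such calls describe 4 pooled values and have no replicate check. Library depth cannot be read from such values and is unknown here.

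Fatty acyl-CoA reductases turn an activated fatty acid (a fatty acyl-CoA) into a fatty aldehyde or a fatty alcohol. In insect oenocytes they act late in the making of cuticular hydrocarbons, after the acid has been built by fatty acid synthase, desaturated and lengthened by the elongation cycle at the endoplasmic reticulum. The aldehyde is then turned into a hydrocarbon by the cytochrome P450 Cyp4g1 with electrons from the reductase Cpr, and the hydrocarbons coat the cuticle, keep water in and serve as pheromones. In mammals, fatty acyl-CoA reductases supply fatty alcohols for wax esters and ether lipids.

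The genes differ in size and position more than in the length of their proteins. On dm6 (BDGP Release 6) the annotated proteins hold 494 to 625 residues (median 513), whereas the genes span 1846 to 27430 bases. The 5 abundant reductases are compact genes. CG4020 lies on chromosome X from 5905746 to 5908001 and FarO on chromosome X from 2201820 to 2203866. Sgp lies on chromosome 2L from 8519690 to 8521809. CG17562, CG17560 and CG14893 stand in a row on the plus strand of chromosome 3R, from 16615309 to 16622702, with 795 and 899 bases between neighbours and no other annotated gene in either gap. CG8306 and CG5065 lie within 35377 bases of chromosome 2R (16589518 to 16624894), with the reductase gene CG8303 between them. CG12268 lies on chromosome 3R from 23943628 to 23948424, and wat, the longest of the genes, on chromosome 3R from 28992977 to 29020406. FarO overlaps Mct1 on the opposite strand and the noncoding gene asRNA:CR43637, whose transcript is part of the FarO locus of the deposited table. The library kit marks strand, but whether strand was used in counting is not given in the sources used here. The noncoding gene lies on the same strand as FarO, so that strand would not separate these 2. The deposited FarO locus runs from 2189188 to 2205373, beyond the gene itself, and the FarO values are uncertain on both counts. CG17560 and wat each contain a microRNA gene (mir-2494 and mir-4947).

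Oenocytes of young flies on water had a summed reductase FPKM of 16579.8, of which 5 genes made up 99.4%. CG4020 had an FPKM of 453 in PQ-Aged, 716 in H2O-Aged, 3941 in PQ-Young and 7898 in H2O-Young. It was the most abundant of the 10 in both young groups, and held rank 29 of 13271 protein-coding loci in H2O-Young and rank 192 of 13249 in H2O-Aged. These ranks leave out loci that had no value because of too many fragments, and the number left out differed between the groups. FarO, a reductase named for its expression in oenocytes, had an FPKM of 271 in PQ-Aged, 379.6 in H2O-Aged, 1034 in PQ-Young and 3044 in H2O-Young. The highest of the FarO values was therefore in unstressed young oenocytes and the lowest in aged, paraquat-fed ones.

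CG17560 had an FPKM of 664 in PQ-Aged, 737 in H2O-Aged, 1886 in PQ-Young and 2106 in H2O-Young, so that its values separated by age and hardly by paraquat. Its neighbour CG17562 had an FPKM of 89.4 in PQ-Aged, 159 in H2O-Aged, 761.6 in PQ-Young and 1727 in H2O-Young. Sgp had an FPKM of 106 in PQ-Aged, 199.9 in H2O-Aged, 621 in PQ-Young and 1714 in H2O-Young. CG17562 and Sgp followed the order of CG4020 and FarO over the groups, with H2O-Young highest, PQ-Young next and both aged groups lowest. CG17562, CG17560, Sgp and CG4020 are annotated as fatty acyl-CoA reductases by their sequence.

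The other 5 genes were far less abundant, and none reached an FPKM of 100 in any group. CG14893, the third gene of the row on chromosome 3R, had an FPKM of 6.79 in PQ-Aged, 8.09 in H2O-Aged, 8.45 in PQ-Young and 54.3 in H2O-Young. It stood out in unstressed young oenocytes alone, and its other 3 values were close together. CG5065 had an FPKM of 7.38 in PQ-Aged, 4.43 in H2O-Aged, 8.74 in PQ-Young and 18.0 in H2O-Young. CG12268 had an FPKM of 2.38 in PQ-Aged, 2.52 in H2O-Aged, 2.97 in PQ-Young and 6.07 in H2O-Young. In both genes, too, H2O-Young was the high group.

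CG8306 had an FPKM of 1.63 in PQ-Aged, 1.30 in H2O-Aged, 3.46 in PQ-Young and 5.50 in H2O-Young, and was the lowest of the 10 in 3 of the 4 groups. The gene wat (waterproof), which is needed for the gas filling of the embryonic airways, had an FPKM of 9.51 in PQ-Aged, 9.19 in H2O-Aged, 6.69 in PQ-Young and 7.68 in H2O-Young. It was the exception to the pattern: 9 of the 10 genes had their highest FPKM in H2O-Young, their second highest in PQ-Young and lower values in both aged groups, while wat was slightly higher in the aged groups. The order of the genes by level also differed between groups. In H2O-Young it ran CG4020, FarO, CG17560, CG17562 and Sgp, and in both aged groups CG17560, CG4020, FarO, Sgp and CG17562. CG17562 and Sgp in H2O-Young, and CG17560 and CG4020 in H2O-Aged, were so close that their order cannot be given without a spread between libraries.

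**Figure D1:**
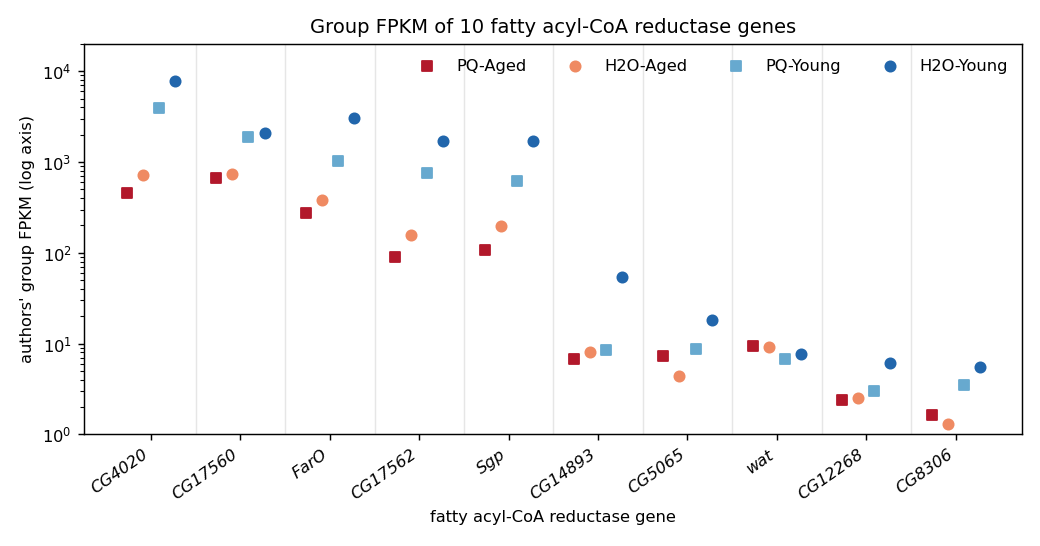
Group FPKM (log axis) of the 10 reductase genes, ordered by their mean, in PQ-Aged, H2O-Aged, PQ-Young and H2O-Young; each point is the authors' single value for 3 pooled libraries, so there are no error bars. H2O-Young is the highest point of 9 genes, and for wat the 4 points lie between 6.69 and 9.51.

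The question of age was first put in flies on water. Of the 10 reductases, 9 were at least 2-fold lower in H2O-Aged than in H2O-Young and none was at least 2-fold higher. Over the 9050 protein-coding loci compared, 23.4% were at least 2-fold lower and 13.5% at least 2-fold higher. The median log2 ratio of the 10 genes was -2.41, against -0.11 for all loci. CG4020 was 11.0-fold lower in H2O-Aged (log2 ratio -3.46), and 1.29% of all loci had a lower ratio. CG17562 was 10.9-fold lower, Sgp 8.58-fold, FarO 8.02-fold and CG14893 6.71-fold. CG8306 and CG5065 were 4.22-fold and 4.06-fold lower, CG17560 2.86-fold and CG12268 2.41-fold. The gene wat had a log2 ratio of 0.26, and -0.00 under quantile normalization. With age in water 63.5% of all calls were downward, against 52.9% after scaling by the median ratio, 37.7% after scaling to Gapdh1 and 51.5% under quantile normalization. These scalings moved the median of all loci by 0.16, 0.39 and 0.19 on the log2 scale, and the 9 reductases kept a ratio below 0 under each of them. CG17560 was no longer 2-fold lower under quantile normalization (log2 ratio -0.16), nor CG12268 after scaling to Gapdh1 (-0.90).

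Loci with a high mean FPKM over the groups had lower values in aged flies as deposited. Of the 1389 loci with a mean FPKM of at least 100 over the groups, 44.2% were at least 2-fold lower in H2O-Aged, with a median log2 ratio of -0.85. This mean takes in the groups compared, so that a locus can pass through a high H2O-Young value alone. The share and the median are therefore partly set by the choice of loci. The 5 abundant reductases had log2 ratios from -3.46 (CG4020) to -1.52 (CG17560) and lay below that median. The summed FPKM of the 10 reductases was 2217 in H2O-Aged and 16579.8 in H2O-Young, a log2 ratio of -2.90, while the sum over all loci had a log2 ratio of -1.14. As a share of all listed FPKM the reductases made up 0.288% in H2O-Aged and 0.979% in H2O-Young. The sum over all loci leaves out loci that had no value because of too many fragments, Cyp4g1 among them. Of 13299 protein-coding loci, 13249 had a value in H2O-Aged and 13271 in H2O-Young, so that the sums cover somewhat different loci.

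The same contrast of age was available in paraquat-fed flies. Of the 10 reductases, 6 were at least 2-fold lower in PQ-Aged than in PQ-Young and none was at least 2-fold higher, beside 13.7% of 8895 loci lower and 6.46% higher. The median log2 ratio of the 10 genes was -1.30, against -0.11 for all loci. CG4020 was 8.70-fold lower in PQ-Aged, CG17562 8.52-fold, Sgp 5.84-fold, FarO 3.81-fold, CG17560 2.84-fold and CG8306 2.13-fold. All 6 were also at least 2-fold lower with age in water. CG14893, CG5065 and CG12268, which had been at least 2-fold lower with age in water, had log2 ratios of -0.31, -0.24 and -0.32 here, and 0.71, 0.78 and 0.70 after scaling to Gapdh1. Gapdh1, the reference gene of the study's methods, had itself an FPKM of 447 in PQ-Aged and 907 in PQ-Young. Scaling to it moved the median of all loci by 1.04 and the share of calls that were downward to 5.08%, against 67.9% as deposited. FarO then had a log2 ratio of -0.91, CG17560 of -0.48 and CG8306 of -0.07, and wat was past 2-fold upward at 1.53. CG8306 was under 2-fold in the other alternatives too, at -0.97 after scaling by the median ratio, -0.93 under quantile normalization and -0.76 with a pseudocount of 1, and CG17560 was at -0.67 under quantile normalization.

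**Figure D2:**
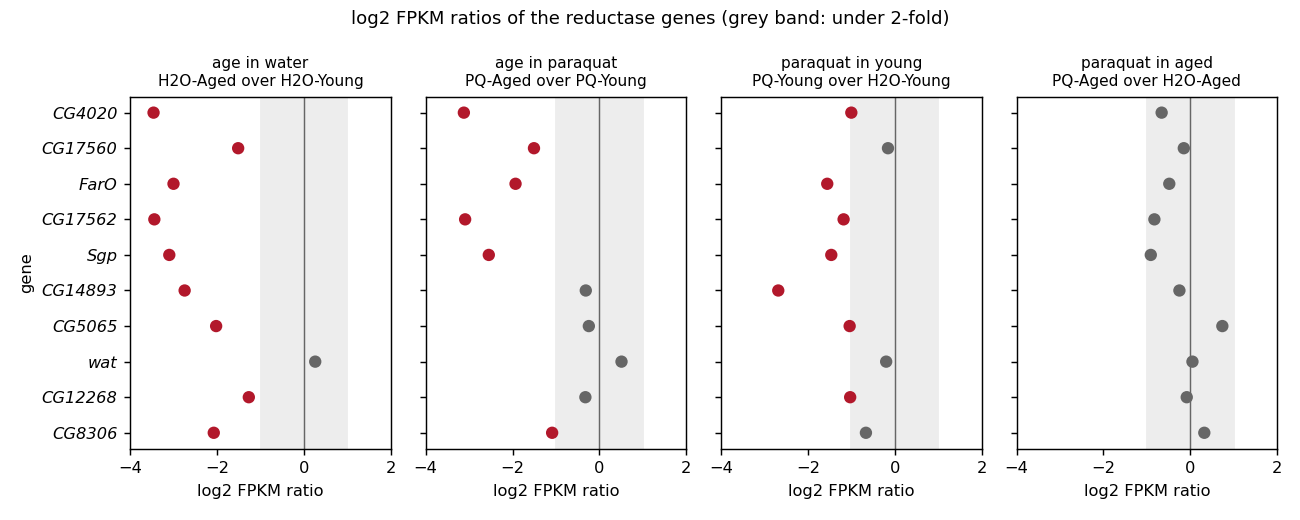
Log2 FPKM ratio (x axis) of each reductase gene (y axis) in the 4 comparisons; red points are at least 2-fold apart, and the grey band covers smaller differences. The numbers of genes at least 2-fold lower are 9, 6, 7 and 0 from left to right, and none is 2-fold higher in values as deposited.

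Paraquat was next set against water in young flies. Of the 10 reductases, 7 were at least 2-fold lower in PQ-Young than in H2O-Young and none was at least 2-fold higher. Over 9024 loci 8.42% were at least 2-fold lower and 2.55% higher. The median log2 ratio was -1.04 for the reductases and -0.04 for all loci. CG14893 had the largest difference at 6.43-fold lower in PQ-Young, and 0.842% of all loci had a lower ratio. FarO was 2.94-fold lower, Sgp 2.76-fold and CG17562 2.27-fold. CG5065, CG12268 and CG4020 lay close to the limit, at 2.06-fold, 2.04-fold and 2.00-fold lower, and were under 2-fold after scaling by the median ratio, which left 4 of the 7. With a pseudocount of 1, CG5065 (-0.96) and CG12268 (-0.83) were also under 2-fold. Quantile normalization left 4 as well, but partly different ones: FarO, CG14893, CG5065 and CG12268 were still at least 2-fold lower, and Sgp (-0.89), CG17562 (-0.64) and CG4020 (-0.55) were not. CG8306 was 1.59-fold lower. The gene wat and CG17560 had log2 ratios of -0.20 and -0.16, and that of CG17560 was 0.38 under quantile normalization. Of all calls, 76.8% were downward as deposited and 64.8% under quantile normalization. This comparison and that of age in water share the H2O-Young libraries, so that a high or low H2O-Young value enters both. In the study's principal component analysis the replicates of each group lay together, except for 1 H2O-Young sample. Its part in the pooled H2O-Young values was not tested.

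Paraquat was set against water in aged flies as well. None of the 10 was 2-fold lower or higher in PQ-Aged than in H2O-Aged, and among 8691 loci 1.85% were lower and 1.46% higher. The median log2 ratio was -0.20 for the reductases and -0.08 for all loci. The lowest ratios were those of Sgp (-0.91), CG17562 (-0.83) and CG4020 (-0.66), and CG5065 had the highest at 0.74. Scaling to Gapdh1 turned the sign of CG17560, FarO, CG14893 and CG12268 to above 0 and brought CG5065 to 1.29. The share of calls that were downward was 55.9% as deposited and 4.92% with that scaling.

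Side by side, the log2 ratio with paraquat was higher in aged than in young flies for all 10 genes as deposited, for 9 after scaling by the median ratio and for 6 under quantile normalization. The exceptions under quantile normalization were CG4020 (-0.22), CG17560 (-0.51), CG17562 (-0.27) and Sgp (-0.11), that is 4 of the 5 abundant reductases. As deposited, the difference of the log2 ratios, aged less young, was 2.43 for CG14893, 1.78 for CG5065 and 1.07 for FarO. It was 0.35 for CG17562 and 0.34 for CG4020. For CG17560 it was 0.01, and -0.02 after scaling by the median ratio. The median difference was 0.75 for the reductases and -0.04 over 8478 loci, of which 47.3% were above 0. CG5065 had a ratio of 0.74 in aged flies and -1.04 in young flies, and CG8306 one of 0.32 in aged flies and -0.67 in young flies, so that both had opposite signs at the 2 ages. The difference was not tested, since no spread between libraries was at hand. It is the same quantity as the log2 ratio of age in paraquat less that of age in water.

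**Figure D3:**
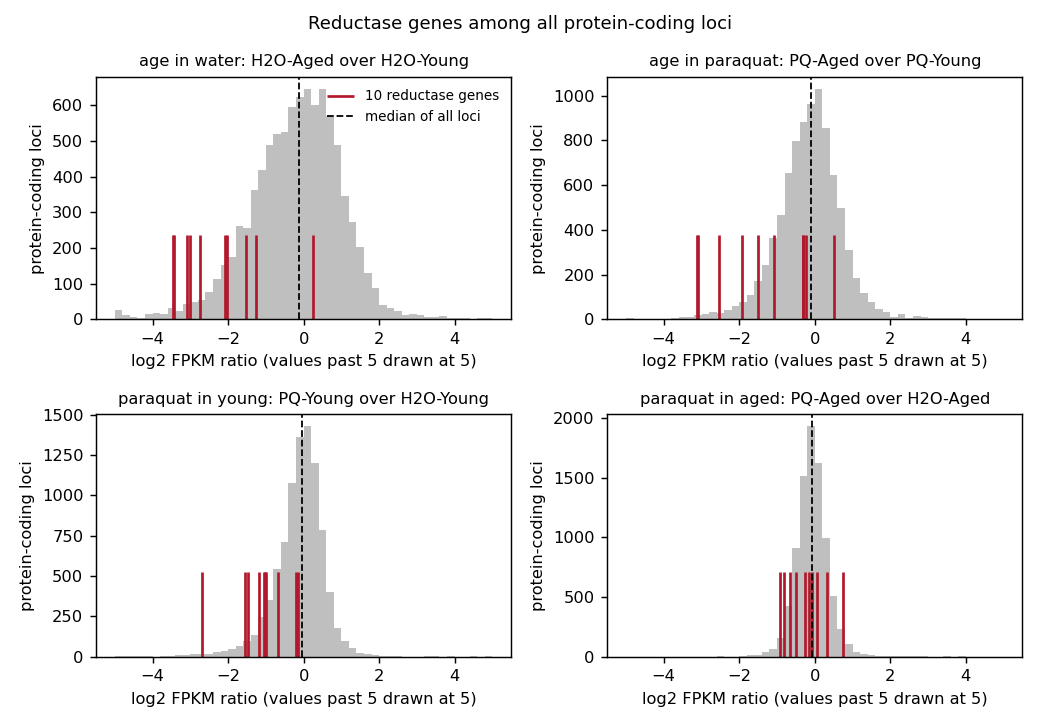
Histograms of the log2 FPKM ratio of all protein-coding loci compared (y axis, number of loci per bin) in the 4 comparisons, with the 10 reductases as red lines and the median of all loci as a dashed line. With age in water 9 red lines lie at or below -1.27, and with paraquat in aged flies all 10 lie between -0.91 and 0.74.

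Ratios between genes within a group do not depend on how the groups were scaled to each other, other than under quantile normalization. CG17560 and CG17562, neighbours on chromosome 3R, had an uneven ratio. CG17560 had 7.43 times the FPKM of CG17562 in PQ-Aged, 4.65 times in H2O-Aged, 2.48 times in PQ-Young and 1.22 times in H2O-Young. CG4020 and CG17562, which lie on different chromosomes, kept a nearly even ratio of 5.07 in PQ-Aged, 4.52 in H2O-Aged, 5.17 in PQ-Young and 4.57 in H2O-Young. CG4020 had 0.683 times the FPKM of CG17560 in PQ-Aged, 0.972 times in H2O-Aged, 2.09 times in PQ-Young and 3.75 times in H2O-Young. CG17562 over CG14893 was 13.2 in PQ-Aged, 19.6 in H2O-Aged, 90.1 in PQ-Young and 31.8 in H2O-Young, so that the 3 genes of the row had 3 different patterns.

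The make-up of the reductase sum differed accordingly. CG4020 gave 28.1% of it in PQ-Aged, 32.3% in H2O-Aged, 47.6% in PQ-Young and 47.6% in H2O-Young. CG17560 gave 41.2% in PQ-Aged, 33.2% in H2O-Aged, 22.8% in PQ-Young and 12.7% in H2O-Young. FarO gave 16.8% in PQ-Aged, 17.1% in H2O-Aged, 12.5% in PQ-Young and 18.4% in H2O-Young. In PQ-Aged CG17560 was thus the largest contributor and in the young groups CG4020. In H2O-Aged both were too close to be ordered.

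**Figure D4:**
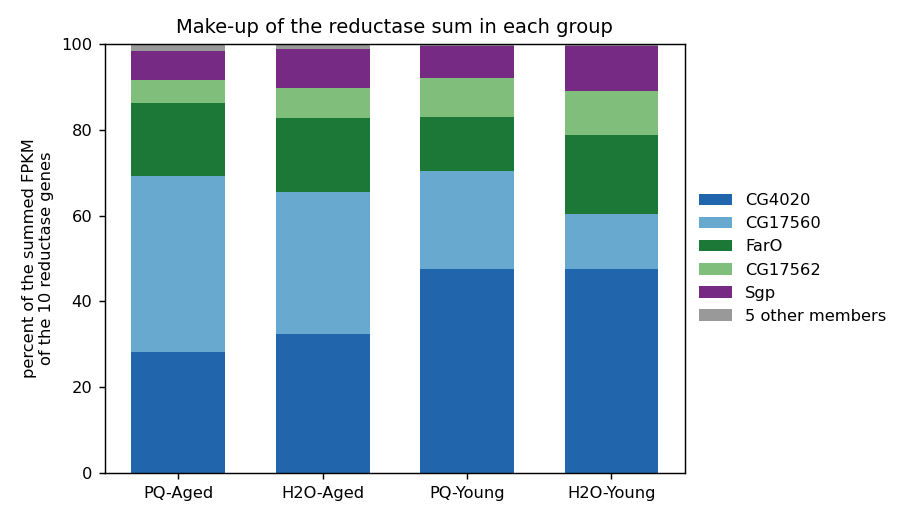
Percent of the summed FPKM of the 10 reductase genes (y axis) given by each of the 5 abundant genes and by the other 5 together, in PQ-Aged, H2O-Aged, PQ-Young and H2O-Young. CG17560 takes 41.2% in PQ-Aged and 12.7% in H2O-Young, and CG4020 28.1% and 47.6%.

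Similarity of pattern was measured as the Euclidean distance over 3 log2 ratios (PQ-Young, H2O-Aged and PQ-Aged, each over H2O-Young) among 4930 loci with an FPKM of at least 10 in every group. Each pattern holds 4 pooled values, and likeness is given as a description. The loci nearest to CG4020 were eloF, a fatty acid elongase of female pheromone synthesis, at a distance of 0.14, Mgstl, a microsomal glutathione S-transferase, at 0.18, and the reductase CG17562 at 0.23. The eloF gene had an FPKM of 444 in PQ-Aged, 629.8 in H2O-Aged, 3849 in PQ-Young and 7317 in H2O-Young, values much like those of CG4020. Nearest to CG17560 were Fmo-2, a flavin-containing monooxygenase (0.13), CG14260 (0.15) and eca, a p24 protein of vesicle transport (0.15). FarO had no neighbour as close, and its nearest loci were COX7AL2 at 0.30, CG8343 at 0.36 and the digestive protease Jon74E at 0.38.

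Of the other 7 reductase genes, only CG10096 and CG10097 reached an FPKM of 10. Both are annotated on chromosome 3R from 12390166 to 12395980, where Sol1 overlaps them on the opposite strand, and their single value cannot be divided between them. Their locus had an FPKM of 122 in PQ-Aged, 129 in H2O-Aged, 284 in PQ-Young and 623 in H2O-Young, which is the order of most of the 10 genes. Its log2 ratio was -2.27 with age in water and -1.13 with paraquat in young flies. CG8303 and CG1441 had an FPKM between 0.437 (CG8303 in PQ-Aged) and 1.28 (CG8303 in H2O-Young). CG30427 and CG34342 stayed under 1 in each group, and CG4770 was listed at 0 in both H2O groups.

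The lists for the other steps of hydrocarbon synthesis differed in how many of their genes were lower with age. Of all loci compared, 23.4% were at least 2-fold lower with age in water and 13.5% higher. With paraquat in young flies these shares were 8.42% and 2.55%. Among loci with a mean FPKM of at least 100, 44.2% were lower with age in water and 10.2% with paraquat in young flies. These loci were chosen by a mean that takes in the groups compared, which partly sets both shares. Of 24 genes of elongation 21 could be compared, and 16 were at least 2-fold lower in H2O-Aged and none higher, with a median log2 ratio of -2.16. With paraquat in young flies 10 of 21 were at least 2-fold lower, against 5 under quantile normalization and 13 after scaling to Gapdh1. The elongase CG30008 had an FPKM of 879 in PQ-Aged, 1035 in H2O-Aged, 9559 in PQ-Young and 28309 in H2O-Young. The elongase CG9458 had log2 ratios of -4.35 with age in water and -1.24 with paraquat in young flies, and Hacd1, the dehydratase of the elongation cycle, -3.74 and -1.41. Of 8 genes of synthesis, 5 were at least 2-fold lower with age in water and 1 higher (bgm, an acyl-CoA synthetase, at 1.02). FASN3, a fatty acid synthase of oenocytes, had a log2 ratio of -4.23 with age in water, and FASN2 and ACC, the acetyl-CoA carboxylase, had -1.69 and -1.34. Under quantile normalization 1 of the 8 was lower. Of 8 genes of desaturation 4 were at least 2-fold lower with age in water and 1 higher (CG9747, at 1.28). The desaturase of female pheromones desatF (listed as Fad2) had a log2 ratio of -2.89 and the desaturase CG15531 one of -3.93. Desat1, whose locus also holds vrs, had -0.23, and 0.14 after scaling to Gapdh1 and 0.41 under quantile normalization. With paraquat in young flies 1 of 8 genes of synthesis (FASN3) and 1 of 8 of desaturation (CG15531) were at least 2-fold lower, and no desaturation gene was under quantile normalization.

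The step after the reductases could be followed only in part. Cyp4g1, the decarbonylase, is marked in the deposited table as holding too many fragments and has no value in any group, and it was not analysed here. Cpr, its electron donor, had an FPKM of 1382 in PQ-Aged, 1250 in H2O-Aged, 2672 in PQ-Young and 3866 in H2O-Young. Of the 3 genes of that list with a value, Cpr alone was at least 2-fold lower with age in water, at a log2 ratio of -1.63, and none was under quantile normalization. Cyt-b5, an electron carrier whose locus also holds Gpo2, had -0.36, but 0.01 after scaling to Gapdh1 and 0.94 under quantile normalization. Cyp4g15, a relative of Cyp4g1 expressed in the brain, had -0.70. With paraquat in young flies none of the 3 was 2-fold apart. Per unit of Cpr the summed reductases stood at 1.17 in PQ-Aged, 1.77 in H2O-Aged, 3.10 in PQ-Young and 4.29 in H2O-Young. Per unit of the summed elongation genes they stood at 0.266 in PQ-Aged, 0.269 in H2O-Aged, 0.196 in PQ-Young and 0.168 in H2O-Young. Per unit of desatF the ratio was nearly even, at 1.05 in PQ-Aged, 1.04 in H2O-Aged, 0.968 in PQ-Young and 1.05 in H2O-Young. In summed FPKM the log2 ratio with age in water was -3.58 for the elongation genes and -2.90 for the reductases, whereas by the median of the genes it was -2.16 for the elongation genes and -2.41 for the reductases.

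Fatty alcohols from reductases also enter ether lipids, and 5 genes of ether lipid synthesis and of acyl transfer to glycerides or alcohols were examined. With age in water 2 of the 5 were at least 2-fold higher, Gnpat (Dhap-at, the acyltransferase that starts ether lipid synthesis) at a log2 ratio of 1.93 and the acyltransferase Dgat2 (CG1942) at 1.74. Agps (CG10253), the next enzyme of ether lipid synthesis, was at least 2-fold lower at -1.25. Of all loci compared with age in water, 13.5% were at least 2-fold higher and 23.4% lower. CG1941, the most abundant of the 5, had 0.50, and its highest FPKM, 43.8 in H2O-Aged, was the highest of the list. With paraquat in young flies 2 of the 5 were at least 2-fold lower, CG1941 among them at -1.09, beside 8.42% of all loci. Under quantile normalization only 4 of the 5 met the FPKM minimum, and none of these was 2-fold lower. Over the 5 lists together, 19 of 43 genes were at least 2-fold lower and 5 higher with age in paraquat, beside 13.7% and 6.46% of all loci. Of the 5 higher genes, 3 were in the ether lipid and acyl transfer list. After scaling to Gapdh1, 13 were lower and 14 higher, beside 2.47% and 46.1% of all loci. With paraquat in aged flies none of the list genes was lower and 1 (Agps, at 1.01) was higher as deposited. Scaling to Gapdh1 gave 3 higher, and quantile normalization 1 lower and none higher.

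**Figure D5:**
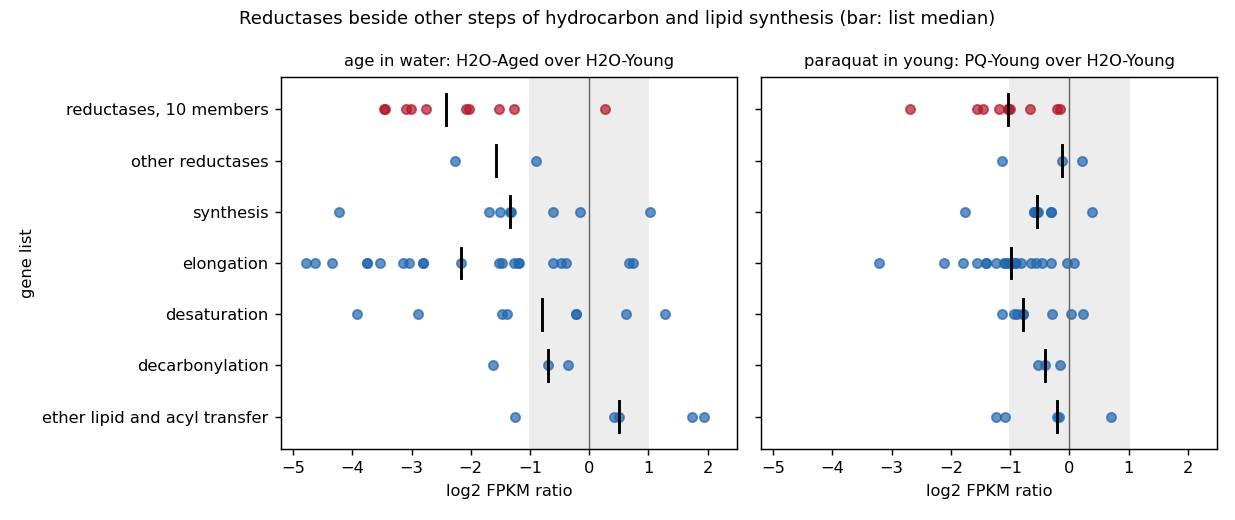
Log2 FPKM ratio (x axis) of the genes of 7 lists (y axis) with age in water (left) and with paraquat in young flies (right); each point is 1 locus with an FPKM of at least 1 in one of both groups, black bars are list medians, and the grey band covers differences under 2-fold. The reductase median is -2.41 with age in water and -1.04 with paraquat in young flies, beside -2.16 and -0.98 for elongation.

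Markers of other tissues were present in the pulled-down RNA. Some of their lists, but not all, had sums highest in H2O-Young and lower in both aged groups, as the reductases did. The sum of 14 eggshell and yolk protein genes was 3316 in PQ-Aged, 4252 in H2O-Aged, 11479 in PQ-Young and 38234 in H2O-Young. Yp2 and Yp1 alone had 14515 and 6020 in H2O-Young, and yolk protein genes do not mark follicle cells alone. With age in water all 14 genes of this list were at least 2-fold lower, and with paraquat in young flies 12, beside 23.4% and 8.42% of all loci. All 8 midgut genes, led by alphaTry and Jon65Aiv, were at least 2-fold lower with age in water, and 5 of 8 under quantile normalization, with sums of 2932 in PQ-Aged, 2318 in H2O-Aged, 5192 in PQ-Young and 9298 in H2O-Young. The oenocyte list (spidey, desatF, eloF, FASN3, Cpr, Hnf4 and others) had sums of 4705 in PQ-Aged, 5497 in H2O-Aged, 20727 in PQ-Young and 36127 in H2O-Young without Cyp4g1, and 6 of its 9 genes with a value were at least 2-fold lower with age in water. All of its genes but Hnf4 and Lpin are also counted in the pathway lists above. Hnf4 and Lpin, whose locus also holds kermit, had log2 ratios of -0.82 and -0.66 with age in water. The part of these tissues in the reductase values was not tested. Germline, photoreceptor, muscle and male lists did not share the order of the groups. The 9 germline genes found had sums of 597 in PQ-Aged, 482 in H2O-Aged, 320.1 in PQ-Young and 318 in H2O-Young. The 8 photoreceptor genes had 345 in PQ-Aged, 461 in H2O-Aged, 1297 in PQ-Young and 592 in H2O-Young. The 8 muscle genes had 789 in PQ-Aged, 588 in H2O-Aged, 503.5 in PQ-Young and 329.7 in H2O-Young. Act57B alone had 551 in PQ-Aged, 325 in H2O-Aged, 203 in PQ-Young and 62.6 in H2O-Young, so that the order of the sums rests largely on it. With age in water 2 of the 8 were at least 2-fold higher and none lower. The 8 male genes had 179 in PQ-Aged and 61.8 in H2O-Young, nearly all from janB, whose locus also holds janA. The 8 fat body genes summed to at most 60.0, the 8 neuronal to 80.6, the 8 hemocyte to 40.6, the 7 Malpighian tubule to 116 and the 8 trachea and epidermis genes to 197, each highest in H2O-Young. The fat body list held no yolk protein gene. The paper reports no significant difference with age in GFP driven by PromE-Gal4. It also reports less RNA pulled down from aged flies, with libraries made from equal RNA amounts. As checks of specificity, it reports no detectable RNA in control pull-downs without antibody or from flies with the driver alone. By qRT-PCR it reports the oenocyte form of Desat1 higher in the pull-down than in the input. The brain gene Dilp2 was very low there compared with head samples. From the pooled values used here, fewer oenocytes, less tagged ribosome per oenocyte and less reductase mRNA on their ribosomes cannot be told apart.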

How the data were processed

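The 12 libraries were grouped by the sample labels into 4 groups of 3. Per the methods and labels, the authors mapped single-end reads with TopHat2 to dm6, assembled them with Cufflinks, merged the assemblies and ran Cuffdiff. The authors deposited 1 table with an FPKM for each locus and group, the 3 libraries of a group pooled, for all 6 pairs of groups. Its columns of fold changes, test statistics, p-values and q-values hold the authors' own comparisons and were not used. No sample-level columns were present, so that no test was run and precision is unknown.

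RefSeq accessions were paired with symbols through the RefSeq gene table of the same assembly, and 13247 of 13299 protein-coding loci matched. Gene structures came from the Ensembl annotation of BDGP6. A value of 0 at one of the 87 loci marked as holding too many fragments was treated as missing, and none of the 10 reductases was among them. Log2 ratios of group FPKM were computed without a pseudocount for protein-coding loci with at least 1 FPKM in one group and above 0 in both. A ratio of at least 2-fold was called, after the fold limit of the methods. Calculations used Python 3.11.15, numpy 2.4.6 and pandas 2.3.3, and the steps were tested on simulated data. Alternatives were scaling by the median ratio, to Gapdh1 or by quantile normalization, a pseudocount of 1, no minimum or one of 10 FPKM, and limits of 1.5-fold and 3-fold. Genes named are the 10 reductases, the 7 other reductases, Cpr and Cyp4g1, the most abundant genes of each list (3 for a pathway, 2 for a tissue), Gapdh1 and the 3 loci nearest in pattern to each of the 3 most abundant reductases. Other list genes named (bgm, CG9747, Gnpat and the oenocyte markers beyond the first 2) were chosen after their values were seen. The reductases and the lists were chosen with earlier results of these data known.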

Additional observations from a re-analysis of the deposited data

How the results depend on the processing

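No paired analysis was possible because the deposited table holds no value per library, and no replicate could be left out for the same reason. With age in water the 9 reductases at least 2-fold lower stayed within 1.5 times that number under each of the 8 alternatives. With age in paraquat, where 6 were lower and none higher, scaling to Gapdh1 gave 3 lower and 1 higher, and CG8306 was past 2-fold in none of the other scalings. With paraquat in young flies, where 7 were lower, scaling by the median ratio and quantile normalization gave 4 each, partly of different genes, and a 3-fold limit 1. With paraquat in aged flies, where none was past 2-fold, scaling to Gapdh1 gave 1 higher, and a 1.5-fold limit gave 1 higher and 3 lower. The median difference of the log2 ratios with paraquat, aged less young, was 0.75, 1.40 after scaling to Gapdh1 and 0.49 under quantile normalization, both chosen after seeing the data, as was the scaling of the pathway lists, which left between 21 and 27 of their genes at least 2-fold lower with age in water, but between 6 and 17 with paraquat in young flies, against 14 as deposited. No called ratio of a single reductase changed sign. The cause of these shifts was not tested. Depth per library is unknown, so that the counting error of the low genes CG8306 and CG12268 cannot be given.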
